A study of Mus musculus with 20 samples.

Results

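Expression was compared between cells given residues 362 to 549 of murine p65/RelA (C-fragment, 3 arrays) and cells given wild-type p65 (WT, 3 arrays). These 6 arrays were chosen by their titles from a series of 20, in which 5 plasmid groups and a void plasmid were profiled as total RNA labelled with Cy3 on 1-colour microarrays. The other arrays carried the D361E form that resists cleavage (3 arrays), residues 1 to 361 (N-fragment, 3 arrays), both fragments together (N+C, 5 arrays) and a group titled Blanck, read as the void plasmid (3 arrays). All groups shared the same host, the mouse melanoma line B16 carrying Bcr-Abl, the fusion kinase of chronic myeloid leukaemia, and grew in DMEM with fetal calf serum, and the labels name no treatment beyond the plasmids. The labels do not say that the host lacks its own p65, whose level beside the plasmids is not known here. The strain field reads C3H eOuJ for every sample, although B16 is known as a line from another inbred strain. The labels do not say whether the 3 arrays of a group came from separate cultures, from clones or from pools, nor how long after transfection RNA was taken, and p-values therefore measure only the spread between these arrays, which may be technical.

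NF-kB is a family of dimeric transcription factors that the IkB proteins hold in the cytoplasm until a signal frees them. p65 binds DNA and its partner subunits through the Rel homology domain in its N-terminal part, and activates transcription through domains in its C-terminal part. Caspases can cut p65 between these parts, and the C-fragment is the piece that keeps the activation domains without the Rel homology domain. Among the best known targets of NF-kB are genes of its own inhibitors, of some of its subunits, and of chemokines.

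A level is given below as the log2 of the background-subtracted signal after subtraction of the array's 75th percentile, so that 0 is that percentile. Differences are C-fragment minus WT on the log2 scale with their standard error (SE), and a gene was called when its adjusted p in the limma fit over all 20 arrays was under 0.05. The 3 C-fragment arrays had 22768 to 23409 spots well above background and the 3 WT arrays 23590 to 24381, of 43020 each, so the ranges did not overlap. Pairwise correlations over 18689 genes were 0.991 to 0.992 within C-fragment, 0.989 to 0.991 within WT and 0.987 to 0.990 between the groups. For the melanoma host, 20 of 20 melanocyte markers were measured, meaning that they passed the filter on dim probes, and 19 of them, all but Ednrb, were above background on all 6 arrays. Mc1r, the melanocortin receptor, was the 1 melanocyte marker called (0.30 ± 0.08, adjusted p = 0.0412). Among 18 markers of blood and B-lymphoid cells 5 passed the filter and 0 were called, and the defining genes Ptprc and Pax5 did not pass the filter. Markers of macrophages (5 of 11 measured, Cd68 higher by 0.75, adjusted p = 0.0091), fibroblasts (6 of 10 measured, Pdgfra at -1.47, adjusted p = 0.00694), epithelium (3 of 8) and endothelium (2 of 6) had no other call.

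With the C-fragment 882 of 18756 genes differed from WT, which is 4.70% of the genes tested. Of these 442 were higher (2.36%) and 440 lower (2.35%), and 148 differed at least 2-fold, 49 upward and 99 downward. The middle called gene was 0.36 higher or 0.54 lower on the log2 scale, while the median of all genes stood at 0.02. For each of the 882 the 3 C-fragment levels lay outside the range of the 3 WT levels, beside 7222 of all 18756 genes (38.5%). The count fell to 406, 468 and 443 when C-fragment array 1, 2 or 3 was left out, and to 404, 471 and 609 without WT array 1, 2 or 3. The 5 N+C arrays enter the estimate of the spread, and without them 1848 genes were called. Slides 1, 3 and 4 each held 1 array of both groups, and with slide as a fixed block 1770 genes were called. Without scaling between arrays 862 were lower and 74 higher, and the median over all genes moved to -0.15 on the log2 scale, so small shifts are given relative to the array percentile. Against the void plasmid the same fit called 2537 genes with the C-fragment (13.5%) and 1890 with WT (10.1%). These comparisons share the void arrays and are used below only to place single genes and gene lists.

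**Figure D1:**
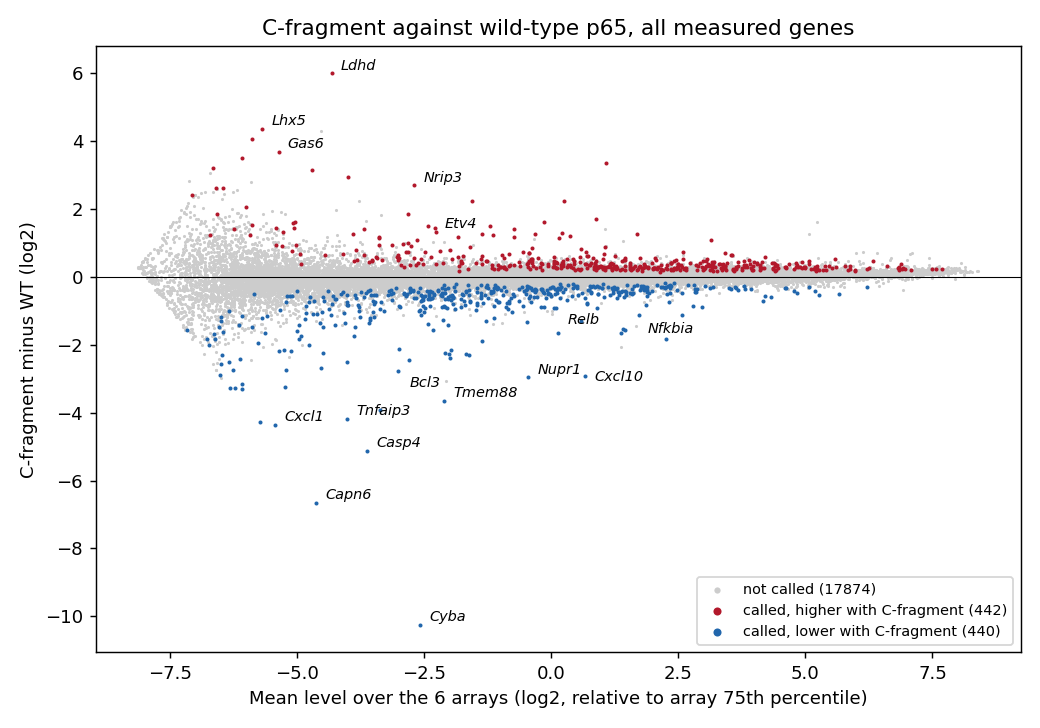
Each point is 1 of 18756 genes, with the mean level over the 6 arrays on the x axis (log2, relative to the array's 75th percentile) and C-fragment minus WT on the y axis (log2). Red marks the 442 genes called higher with the C-fragment and blue the 440 called lower, and the labelled genes are among those described in the text.

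Rela, the gene of p65 itself, was not called between the groups. Its level was 4.20, 4.14 and 4.12 on the C-fragment arrays, against 4.13, 4.15 and 4.14 with WT and 4.10, 4.05 and 4.09 with the void plasmid. C-fragment and WT overlapped, the void arrays lay just below both, and the difference from WT was 0.01 ± 0.07 (adjusted p = 0.981). The position of the probe along the transcript was not determined, so neither construct was checked by it. Without scaling the difference stood at -0.15, below 0 like the median gene.

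Several inhibitors that NF-kB induces against itself were lower with the C-fragment, as were several chemokines. Of 12 measured genes listed as feedback inhibitors, the nuclear IkB gene Bcl3 among them, 4 fell and 0 rose. Of 11 measured chemokines, cytokines and adhesion genes 4 fell and 0 rose, and of 4 measured subunits 2 fell and 0 rose. Over all genes 2.35% were called lower and 2.36% higher. The medians of the lists were -0.20, -0.14 and -0.56. The kB consensus, the sequence family that NF-kB dimers bind, was searched on both strands in RefSeq promoter windows of build GRCm38.p6 that reach from 250 bases before a gene's start to 50 after it. It occurred in 8.46% of all 32851 windows and, gene by gene, in 12% of the 11044 tested genes that had a window. The share was 11.4% among 315 genes called higher and 16.3% among 332 called lower. Among measured feedback inhibitors with a window 7 of 10 held it, the 4 that fell among them, and among measured genes of the chemokine list 5 of 8, including the 3 that fell and had a window. Members that did not fall thus held it as well. A match is a run of letters and not a shown binding site. The windows of 5 genes that fell and hold a match are shown, 3 of the inhibitor list and 2 chemokines, to let the matches be read. Each runs 5′ to 3′ on the gene's strand from 200 bases before its start to 30 after it, with letters that match the consensus in capitals, overlapping matches as 1 run. They lie at chr10:19015381-19015610 (minus strand) for Tnfaip3, chr12:55492618-55492847 (minus) for Nfkbia, chr7:19822726-19822955 (minus) for Bcl3, chr5:90891045-90891274 (plus) for Cxcl1 and chr5:92348860-92349089 (minus) for Cxcl10.
Tnfaip3: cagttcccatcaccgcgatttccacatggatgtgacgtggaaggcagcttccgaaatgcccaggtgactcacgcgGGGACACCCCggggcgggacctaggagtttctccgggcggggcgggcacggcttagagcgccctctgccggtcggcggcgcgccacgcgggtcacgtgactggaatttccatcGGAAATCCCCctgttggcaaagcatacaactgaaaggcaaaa
Nfkbia: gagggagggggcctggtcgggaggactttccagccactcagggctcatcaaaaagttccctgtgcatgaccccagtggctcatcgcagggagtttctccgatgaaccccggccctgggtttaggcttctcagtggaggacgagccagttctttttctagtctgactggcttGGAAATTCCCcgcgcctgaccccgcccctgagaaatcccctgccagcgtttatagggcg
Bcl3: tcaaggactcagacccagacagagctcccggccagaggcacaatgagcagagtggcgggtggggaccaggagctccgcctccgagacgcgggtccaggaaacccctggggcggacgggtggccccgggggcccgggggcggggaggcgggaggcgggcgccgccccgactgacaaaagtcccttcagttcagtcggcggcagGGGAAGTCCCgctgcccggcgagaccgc
Cxcl1: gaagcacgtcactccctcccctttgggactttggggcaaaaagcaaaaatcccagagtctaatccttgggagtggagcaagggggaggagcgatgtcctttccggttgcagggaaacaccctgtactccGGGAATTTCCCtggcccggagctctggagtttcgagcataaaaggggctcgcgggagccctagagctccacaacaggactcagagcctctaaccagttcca
Cxcl10: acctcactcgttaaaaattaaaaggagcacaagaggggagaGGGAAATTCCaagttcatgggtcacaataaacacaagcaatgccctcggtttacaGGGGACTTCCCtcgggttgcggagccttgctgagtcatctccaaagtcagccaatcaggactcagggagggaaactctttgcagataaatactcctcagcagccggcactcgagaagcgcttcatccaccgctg

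Tnfaip3, which encodes the ubiquitin-editing inhibitor A20, differed most among the inhibitors. Its level was -6.06, -6.18 and -6.05 on the C-fragment arrays, against -1.84, -1.98 and -1.93 with WT and -4.55, -4.48 and -4.52 with the void plasmid. It was not well above background on any C-fragment array, below the void plasmid as well as WT, and the groups lay far apart. The difference from WT was -4.18 ± 0.14 (adjusted p = 3.59e-11), a level at least 13.6-fold lower. The fitted difference of a gene at background in 1 group rests on signals at background, and the bound is the firmer value. In such bounds the dim group is taken at the higher of its own signal and the lowest signal well above background on each array. Bcl3, a nuclear IkB protein that works with NF-kB homodimers, was at -4.33, -4.20 and -4.65 with the C-fragment, against -1.53, -1.65 and -1.67 with WT and -2.83, -2.95 and -3.09 with the void plasmid. The C-fragment arrays were again lowest and the WT arrays highest, 6.85-fold apart (-2.78 ± 0.16, adjusted p = 2.74e-08). With N+C the means of Tnfaip3 and Bcl3 were -5.82 and -3.70, beside -6.10 and -4.39 with the C-fragment.

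Nfkbia encodes IkB-alpha, the classical cytoplasmic inhibitor. It stood at 1.24, 1.17 and 1.09 with the C-fragment, against 2.44, 2.25 and 2.19 with WT and 1.41, 1.52 and 1.57 with the void plasmid. The C-fragment arrays lay 2.18-fold below WT (-1.13 ± 0.11, adjusted p = 1.47e-05). They lay below the void arrays without a call (-0.33, adjusted p = 0.0565), whereas WT was 0.79 above void (adjusted p = 0.000274). Nfkbie, the gene of IkB-epsilon, was at -1.31, -1.27 and -1.28 with the C-fragment, against -0.46, 0.03 and -0.33 with WT. Its WT arrays were the more scattered group, and the call (-1.03 ± 0.22, adjusted p = 0.014) ended without C-fragment array 1 or 3 or WT array 2, at adjusted p = 0.0577, 0.0519 and 0.0762. With N+C the means of Nfkbia and Nfkbie were 1.54 and -1.50, beside 1.17 and -1.29 with the C-fragment. The other 8 inhibitors had no call and lay between -0.37 (Tnip1, an A20-binding protein, adjusted p = 0.11) and 0.30 (Nfkbid, adjusted p = 0.909).

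Among the subunits, Relb, the partner of p100 and p52 in the alternative pathway, was at -0.76, -0.69 and -0.60 with the C-fragment, against 0.90, 1.04 and 0.98 with WT and -0.07, -0.21 and -0.13 with the void plasmid. The 3 groups were separate, with C-fragment lowest and WT highest, and C-fragment 3.15-fold below WT (-1.66 ± 0.11, adjusted p = 1.76e-07). Nfkb2, which encodes p100, was at 0.36, 0.30 and 0.27 with the C-fragment, against 1.05, 1.11 and 1.16 with WT and 0.25, 0.51 and 0.66 with the void plasmid. It was below WT (-0.80 ± 0.19, adjusted p = 0.0211) and overlapped the void arrays, but in each of the 6 fits that left out 1 array the adjusted p was 0.0637 to 0.0778. With N+C the means of Relb and Nfkb2 were -0.95 and 0.29, beside -0.68 and 0.31 with the C-fragment. Nfkb1, the gene of p105 and p50, was not called (-0.33 ± 0.17, adjusted p = 0.339), and Rel did not pass the filter.

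Cxcl10, a chemokine for T cells that interferon also induces, had the tightest difference of the chemokines. Its level was -0.75, -0.77 and -0.82 with the C-fragment, against 2.16, 2.20 and 2.04 with WT and 0.74, 0.52 and 0.38 with the void plasmid. C-fragment arrays lay below the void arrays (-1.32, adjusted p = 5.29e-08) and WT arrays above them (1.59, adjusted p = 7.7e-09), 7.54-fold apart from each other (-2.91 ± 0.08, adjusted p = 2.05e-12). Cxcl1, which attracts neutrophils, was not well above background on any C-fragment or void array. It stood at -6.93, -8.12 and -7.77 with the C-fragment, against -3.05, -3.33 and -3.38 with WT, and was at least 5.39-fold lower (-4.35 ± 0.47, adjusted p = 4.87e-05). Ccl2, which attracts monocytes, was dim too, at -7.31, -7.43 and -7.03 with the C-fragment against -5.90, -5.48 and -5.57 with WT (-1.61 ± 0.20, adjusted p = 0.000217). None of its C-fragment arrays was well above background, and its bound was at least 1.02-fold. Csf1, a growth factor of macrophages, was at -1.32, -1.27 and -1.35 with the C-fragment and -0.41, -0.36 and -0.32 with WT, beside -1.24, -1.27 and -1.28 with the void plasmid. C-fragment and void arrays overlapped there, WT lay above both, and the call against WT (-0.95 ± 0.24, adjusted p = 0.0366) ended in each of the 6 fits without 1 array (adjusted p 0.0983 to 0.115). With N+C the means of Cxcl10 and Cxcl1 were 1.37 and -8.09, beside -0.78 and -7.61 with the C-fragment. Those of Ccl2 and Csf1 were -7.15 and -1.24, beside -7.26 and -1.31.

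The list did not move as a block. Ccl5, another chemokine induced by NF-kB, stood at -0.03, 0.02 and -0.10 with the C-fragment, against -0.05, -0.07 and -0.19 with WT, with overlapping groups (0.07 ± 0.17, adjusted p = 0.949). With the N-fragment its mean was 3.57. Cx3cl1 was higher on all C-fragment arrays without a call (0.54 ± 0.15, adjusted p = 0.0529), and the mitochondrial superoxide dismutase gene Sod2 likewise (0.19 ± 0.08, adjusted p = 0.287). Of the 27 genes listed 16 did not pass the filter.

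**Figure D2:**
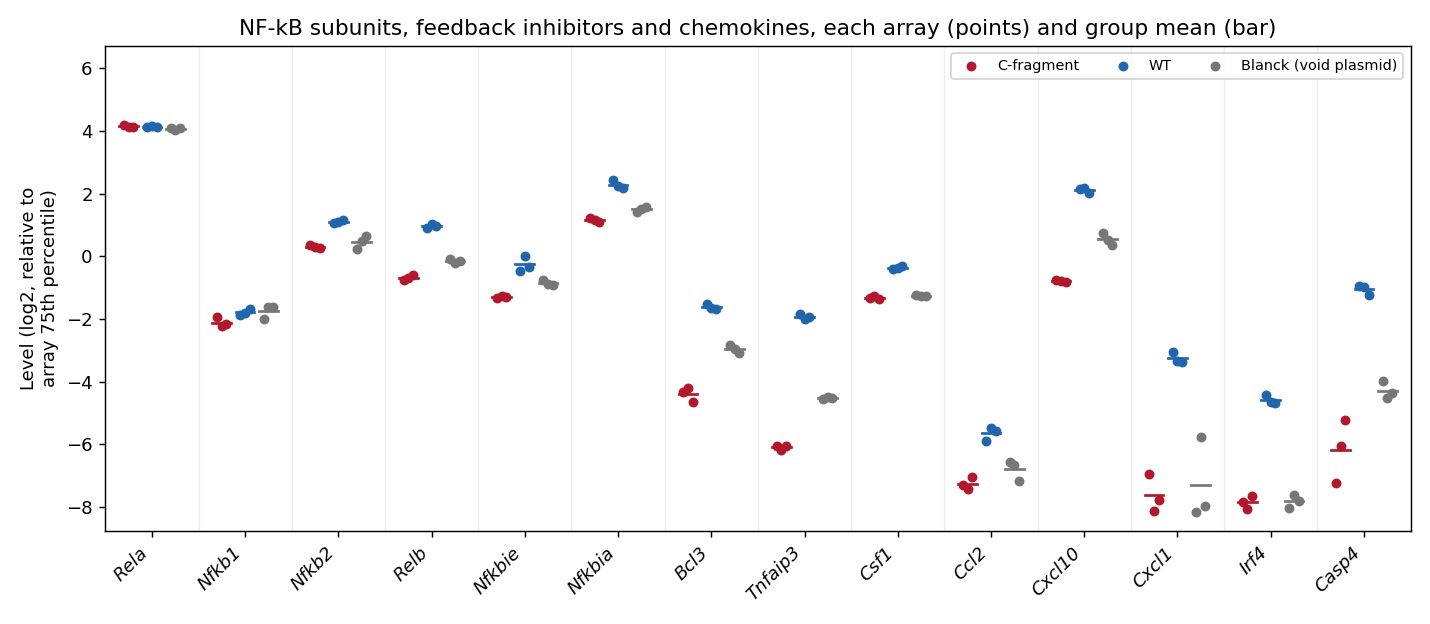
Levels (log2, relative to the array's 75th percentile, y axis) of NF-kB subunit, inhibitor and chemokine genes with Irf4 and Casp4, where each point is 1 array and each bar a group mean, in the order C-fragment, WT and Blanck. Rela is level across the groups, while Tnfaip3, Bcl3, Relb and Cxcl10 are lowest with the C-fragment and highest with WT.

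Signalling genes upstream of NF-kB, survival genes and p53 targets had 0 to 2 calls a list, which at these list sizes is near the 4.70% over all genes. Of 19 measured genes of the IKK complex and TNF receptor signalling 1 fell, Tank, a TRAF-binding adaptor (-0.38 ± 0.08, adjusted p = 0.0123). The call of Tank ended without C-fragment array 2 (adjusted p = 0.0584), without WT array 3 (0.0591) and with the mean of its probes (0.113). Of 12 survival genes 1 fell, Birc2, which encodes the inhibitor of apoptosis cIAP1 (-0.47 ± 0.12, adjusted p = 0.0302), and without any 1 array its adjusted p was 0.0687 to 0.103. Of 14 apoptosis effectors 0 were called, and they lay between -0.21 and 0.26. Of 22 p53 targets 1 rose (Phlda3, an Akt inhibitor, 0.41 ± 0.11, adjusted p = 0.0361) and 1 fell (Sesn2, a stress sensor that restrains mTORC1, -0.39 ± 0.08, adjusted p = 0.0118). With the 6 arrays alone 6 p53 targets were called higher, in a fit that called 1187 of all 18756 genes higher. Phlda3 was not called in any of the 6 fits without 1 array (adjusted p 0.0682 to 0.138), and Sesn2 not without C-fragment array 3 (0.0666) or WT array 1 (0.0675).

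The integrated stress response was the largest group of genes below WT. In this pathway kinases that sense stress phosphorylate eIF2-alpha, which favours translation of the transcription factor ATF4, and ATF4 induces genes of amino acid supply. Of 25 measured members 12 fell and 0 rose, beside 2.35% of all genes called lower. The median was -0.41 beside 0.02 over all genes. Against the void plasmid the median of the list was 0.03 with the C-fragment and 0.41 with WT. The number that fell was 8 to 11 when any 1 of the 6 arrays was left out. Of the 22 members with a promoter window 8 held CARE (TGATGNAA, searched on both strands), the element ATF4 binds, among them 6 of the 11 that fell and had a window. CARE was present in 3.97% of all windows, in 2.88% of tested genes with one, in 1.9% of genes called higher and in 7.83% of genes called lower. The windows of Nupr1 and Chac1 are shown as examples of members that fell and hold a match. Atf3, described below, fell and holds a match too. The windows shown lie at chr7:126625441-126625670 (minus strand) and chr2:119351042-119351271 (plus strand) of GRCm38.p6, with CARE in capitals.
Nupr1: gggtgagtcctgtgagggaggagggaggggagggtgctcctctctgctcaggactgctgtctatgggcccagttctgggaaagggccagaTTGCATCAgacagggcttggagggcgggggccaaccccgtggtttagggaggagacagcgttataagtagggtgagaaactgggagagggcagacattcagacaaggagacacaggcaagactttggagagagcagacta
Chac1: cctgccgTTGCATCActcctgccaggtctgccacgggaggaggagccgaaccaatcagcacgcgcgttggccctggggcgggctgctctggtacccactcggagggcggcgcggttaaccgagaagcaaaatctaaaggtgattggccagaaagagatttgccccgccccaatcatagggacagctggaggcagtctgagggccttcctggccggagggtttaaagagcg

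Nupr1, a small chromatin protein induced by stress, was at -1.76, -1.89 and -2.12 with the C-fragment, against 1.31, 0.94 and 0.84 with WT and -0.84, -0.81 and -0.71 with the void plasmid. All C-fragment arrays were below all void arrays, and all WT arrays above both (-2.95 ± 0.45, adjusted p = 0.00116, 7.74-fold lower). C-fragment minus void was not called (-1.13, adjusted p = 0.11), whereas WT minus void was (1.82, adjusted p = 0.0166). The means of Nupr1 with D361E, the N-fragment and N+C were -0.71, -1.99 and -1.34, below WT as well. Atf3, a transcription factor of the same response, stood at -3.01, -2.98 and -3.38 with the C-fragment, against -1.67, -1.66 and -1.86 with WT and -1.76, -1.71 and -1.58 with the void plasmid. Here WT overlapped the void arrays and the C-fragment lay below both (-1.39 ± 0.13 from WT, adjusted p = 8.44e-06). The means of Atf3 were -2.80 with D361E, -1.87 with the N-fragment and -1.61 with N+C.

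Other members were placed differently. Chac1, which degrades glutathione, was at 2.06, 2.16 and 1.84 with the C-fragment, against 3.33, 3.15 and 2.92 with WT and 1.44, 1.38 and 1.38 with the void plasmid. The pseudokinase gene Trib3 was at 2.65, 2.67 and 2.29 with the C-fragment, against 3.65, 3.41 and 3.19 with WT and 1.98, 1.54 and 1.56 with the void plasmid. In both genes the C-fragment arrays lay between void and WT, 2.16-fold below WT for Chac1 (-1.11 ± 0.21, adjusted p = 0.00612) and 1.85-fold for Trib3 (-0.88 ± 0.18, adjusted p = 0.00977). C-fragment minus void was not called for Chac1 (0.62, adjusted p = 0.0663) and was called for Trib3 (0.84, adjusted p = 0.00609). The call of Trib3 against WT ended without C-fragment array 3 (adjusted p = 0.0584) or WT array 1 (0.0611). With D361E, the N-fragment and N+C the means of Chac1 were 2.20, 0.66 and 1.27, beside 2.02 with the C-fragment. Those of Trib3 were 2.43, 1.06 and 1.94, beside 2.53. The falls of Chac1 and Trib3 from WT were thus not particular to the C-fragment. Also called lower were Pck2 (-0.83) and Aldh1l2 (-0.71), mitochondrial enzymes, Asns, which makes asparagine (-0.53), the folate enzyme gene Mthfd2 (-0.49), the mTORC1 inhibitor gene Ddit4 (-0.48), the serine synthesis genes Psph (-0.44) and Psat1 (-0.33), and Cebpg, a partner of ATF4 (-0.41). Atf4 itself was not called (-0.38, adjusted p = 0.0635), nor was Ddit3, which encodes CHOP (-0.16, adjusted p = 0.582). Of 20 cytosolic aminoacyl-tRNA synthetases 3 fell, Cars (-0.57), Iars (-0.29) and Mars1 (-0.29), and 0 rose, beside 2.35% of all genes called lower. Cars lost its call in each of the 6 fits without 1 array (adjusted p 0.0658 to 0.124).

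Some chaperones of the endoplasmic reticulum and targets of XBP1, the transcription factor activated by IRE1 splicing, were lower by smaller amounts. Of 22 measured members 9 fell and 0 rose, beside 2.35% of all genes called lower, and the median was -0.29. Against the void plasmid the median of the list was -0.15 with the C-fragment and 0.17 with WT. The number that fell was 4 without C-fragment array 1 and 4 without WT array 1. Herpud1, which acts in the degradation of misfolded proteins, was at 2.29, 2.43 and 2.38 with the C-fragment, against 3.39, 3.30 and 2.94 with WT and 2.90, 2.66 and 2.50 with the void plasmid. The C-fragment arrays were below those of WT and void (-0.84 ± 0.12 from WT, adjusted p = 0.000825). With D361E, the N-fragment and N+C the means of Herpud1 were 2.67, 2.04 and 2.14, beside 2.37 with the C-fragment. Xbp1 (-0.42, adjusted p = 0.00248) and Hspa5, the gene of the chaperone BiP (-0.30, adjusted p = 0.00476), were lower with it. The disulfide isomerase gene Pdia4 (-0.44) was not called in any fit without 1 array (adjusted p 0.0604 to 0.124), and the co-chaperone gene Dnajb9 was at -0.48 and Creld2 at -0.49. Creld2 lost its call without C-fragment array 1 (adjusted p = 0.0525) or WT array 1 (0.0517). Its means with D361E, the N-fragment and N+C were 5.23, 4.93 and 5.03, beside 4.60 with the C-fragment and 5.09 with WT. ERSE (CCAAT and CCACG with 9 bases between, both strands), the element of such chaperone genes, occurred in 0.119% of all windows, 0.199% of tested genes with one, and 8 of 19 members with one, 3 of them among the 8 that fell. The window of Hspa5 at chr2:34771890-34772119 (plus strand, GRCm38.p6) shows it in capitals, as the gene by which this response is usually followed.
Hspa5: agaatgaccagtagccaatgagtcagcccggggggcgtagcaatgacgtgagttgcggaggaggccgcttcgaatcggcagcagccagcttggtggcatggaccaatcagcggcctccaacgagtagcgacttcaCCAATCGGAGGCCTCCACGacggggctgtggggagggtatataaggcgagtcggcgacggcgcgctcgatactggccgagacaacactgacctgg

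**Figure D3:**
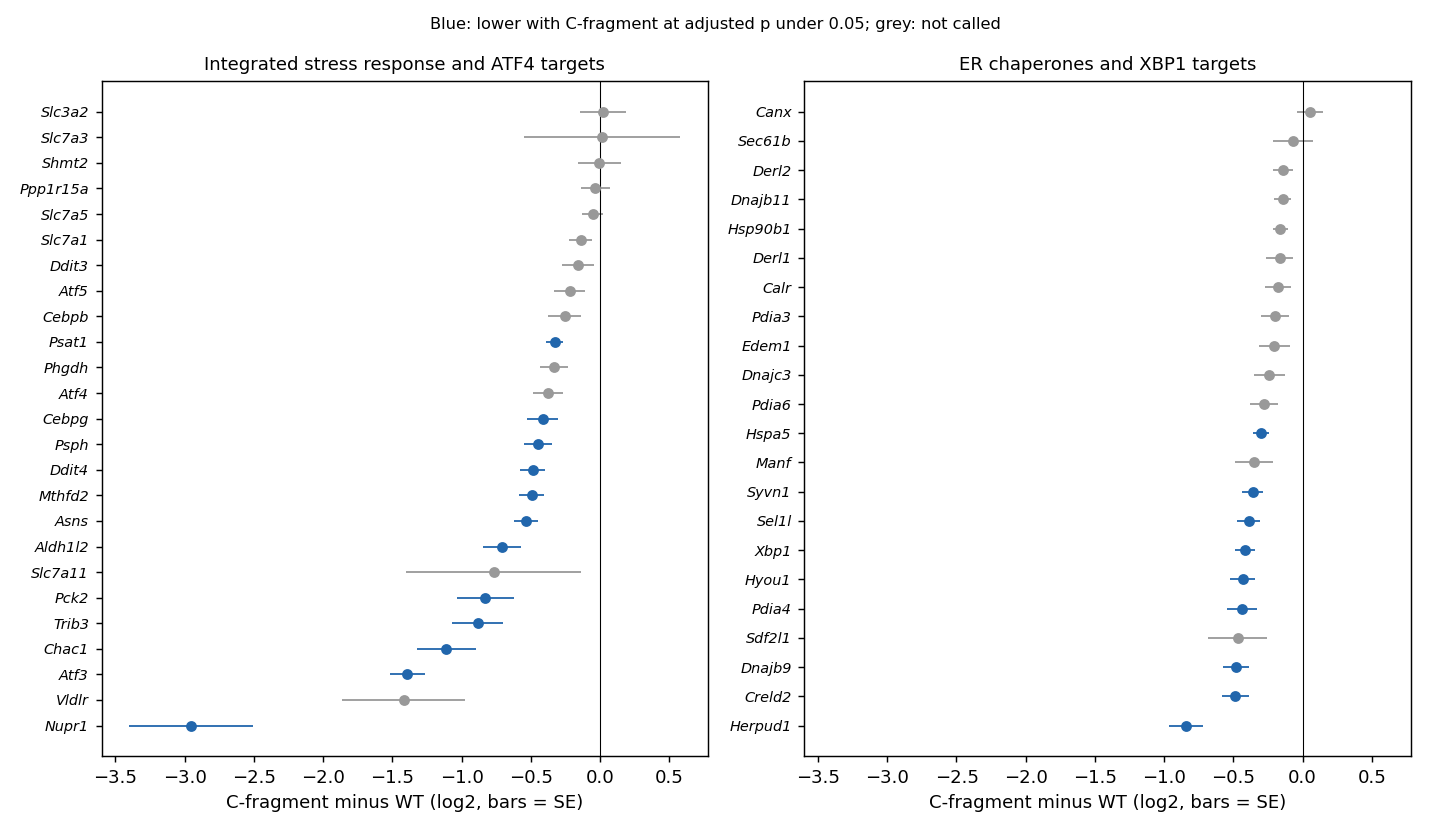
C-fragment minus WT (log2, x axis, bars are the SE) for each measured member of the integrated stress response list (left) and of the chaperone list (right), in blue where called lower. In the left panel 23 of 25 members lie below 0 and 12 are called, and in the right panel 21 of 22 lie below 0 and 9 are called.

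Genes of glycolysis and the hypoxia response split in direction. Of 28 measured members 7 fell and 2 rose, beside 2.35% of all genes called lower and 2.36% higher. Bnip3, a mitophagy receptor induced by hypoxia, was at 1.48, 1.29 and 1.25 with the C-fragment, against 3.34, 2.88 and 3.27 with WT and 3.60, 3.46 and 3.73 with the void plasmid. The C-fragment arrays were 3.54-fold below WT (-1.82 ± 0.14, adjusted p = 8.01e-07), whereas WT was not called against void (-0.44, adjusted p = 0.0599). The mean of Bnip3 was also below WT with D361E (1.17), the N-fragment (1.74) and N+C (1.18). Pdk1, which restrains entry of pyruvate into the citric acid cycle, fell (-0.89 ± 0.10, adjusted p = 7.39e-05), as did the phosphofructokinase gene Pfkl (-0.78 ± 0.16, adjusted p = 0.0121) and the angiogenic factor gene Vegfa (-0.75 ± 0.14, adjusted p = 0.00594). With D361E, the N-fragment and N+C the means of Pdk1 were -3.31, -3.41 and -3.24, beside -2.52 with the C-fragment. Those of Vegfa were -2.46, -1.89 and -1.83, beside -1.40, and those of Pfkl 0.23, 0.58 and 0.58, beside 0.32. These falls from WT were thus not particular to the C-fragment. The call of Pfkl ended without C-fragment array 3 (adjusted p = 0.0626) or WT array 1 (0.0557). The remaining falls were Ankrd37 (-0.71), P4ha1 (-0.54) and Egln1 (-0.49), the last a sensor of oxygen. Against these, Pfkfb3, which makes an activator of glycolysis, was at 0.33, 0.33 and 0.42 with the C-fragment and -0.20, -0.22 and -0.29 with WT, without overlap (0.60 ± 0.05, adjusted p = 9.86e-07). Car9, a carbonic anhydrase of the cell surface, also rose (0.56 ± 0.07, adjusted p = 0.000249). The means of Pfkfb3 were -0.02 with D361E, 0.66 with the N-fragment and 0.91 with N+C, and those of Car9 -0.66, -0.47 and -0.67.

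Immune presentation genes were lower in part. Of 12 measured genes of MHC class I presentation 2 fell and 0 rose, beside 2.35% of all genes called lower. The median of the list was -0.45. Tapbp, the tapasin gene that helps load peptides, was at -0.05, -0.08 and -0.02 with the C-fragment, against 1.27, 1.30 and 1.18 with WT and 0.15, 0.25 and 0.25 with the void plasmid. WT stood clear of both other groups, and the C-fragment was 2.46-fold below it (-1.30 ± 0.09, adjusted p = 4.67e-07). B2m, the light chain of class I molecules, fell by less (-0.58 ± 0.13, adjusted p = 0.0176), a call that held without WT array 3 alone among the 6 fits without 1 array (adjusted p 0.0596 to 0.091 in the other 5). Of 29 interferon-stimulated genes 0 were called in the fit of all 20 arrays, with a median of -0.21 and a range from -1.33 to 0.26, and 4 were called lower when the 6 arrays compared were fitted alone and 6 without the N+C arrays. These fits called 1192 and 924 of all 18756 genes lower, against 440 with all 20 arrays.

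A few outputs of ERK signalling were higher with the C-fragment than with WT, as they were with the N-fragment and N+C. Of 21 measured AP-1, EGR, MYC and ERK feedback genes 3 rose and 1 fell, beside 2.36% of all genes called higher and 2.35% lower. Etv4 and Etv5, ETS factors that ERK signalling induces, rose by 1.33 ± 0.22 (adjusted p = 0.00263) and 1.26 ± 0.29 (adjusted p = 0.0177). Etv4 was at -1.33, -1.64 and -1.84 with the C-fragment, against -3.21, -3.02 and -2.57 with WT and -4.45, -3.74 and -4.05 with the void plasmid. Its order was void, WT and C-fragment with no overlap. Dusp6, the phosphatase that restrains ERK, was at 3.90, 3.88 and 3.84 with the C-fragment, against 3.27, 3.18 and 3.23 with WT and 3.33, 3.45 and 3.44 with the void plasmid, which put C-fragment above both (0.65 ± 0.06 from WT, adjusted p = 1.33e-05). Jund, an AP-1 subunit, fell (-0.46 ± 0.07, adjusted p = 0.0021). Etv5 lost its call without C-fragment array 1 (adjusted p = 0.0863) or 2 (0.0577) or WT array 1 (0.081) or 2 (0.0719). With D361E, the N-fragment and N+C the means of Etv4 were -3.62, -0.55 and -1.22, beside -1.60 with the C-fragment. Those of Etv5 were 0.65, 2.20 and 2.64, beside 2.32, and those of Dusp6 3.29, 3.87 and 3.97, beside 3.87.

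In lists of growth and housekeeping genes the counts of calls were small, and most were near or below the 4.70% over all genes. These counts moved with the arrays fitted: with the 6 arrays alone and without the N+C arrays the NRF2 list had 6 and 7 genes called higher, and the DNA replication list 7 and 4, against 2 each with all 20 arrays. Those fits also called more of all 18756 genes higher, 1187 and 924 against 442. The NRF2 targets Srxn1, a sulfiredoxin (0.43 ± 0.09, adjusted p = 0.0133), and Txnrd1, a thioredoxin reductase (0.37 ± 0.07, adjusted p = 0.00767), rose among 23, but neither was called without scaling (adjusted p = 0.189 and 0.208). Without scaling the DNA replication genes Cdt1 (0.29 ± 0.07, adjusted p = 0.0255) and Mcm3 (0.26 ± 0.06, adjusted p = 0.019), called among 22, were at 0.12 and 0.09 and had no call either (adjusted p = 0.685 and 0.728). In the fits without 1 array Cdt1 was called in 0 of 6 and Mcm3 in 1 of 6, Srxn1 and Txnrd1 in 4 of 6 each. Of 30 ribosomal protein genes 29 lay above 0 with a median of 0.17, and 0 were called, whereas 9 were called higher with slide as a fixed block and 5 with slide as a random block. The slide fits called 1048 and 890 of all 18756 genes higher. The median of the ribosomal genes was 0.001 without scaling and nearer still to 0 after quantile normalization. The 20 mitosis genes, 27 oxidative phosphorylation subunits, 24 proteasome subunits, 23 lysosomal genes, 10 STAT5 targets and 6 ID and inhibitory SMAD genes had 0 calls in the fit of all 20 arrays. Of 27 mesenchymal and matrix genes 1 fell, the basement membrane collagen gene Col4a1 (-1.17 ± 0.13, adjusted p = 5.46e-05). Among 13 tubulins Tubb2b was called, at -0.62, -0.62 and -0.90 with the C-fragment, against -1.87, -2.02 and -2.09 with WT and -5.14, -5.28 and -5.95 with the void plasmid (1.28 ± 0.21, adjusted p = 0.0023), though its second probe differed by 0.46 and the mean of both was not called (adjusted p = 0.137). Lgals8, 1 of 5 galectins, fell by 0.27 on the log2 scale (adjusted p = 0.0415), and its call held without WT array 3 alone among the 6 fits without 1 array (adjusted p 0.0844 to 0.207 in the other 5).

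**Figure D4:**
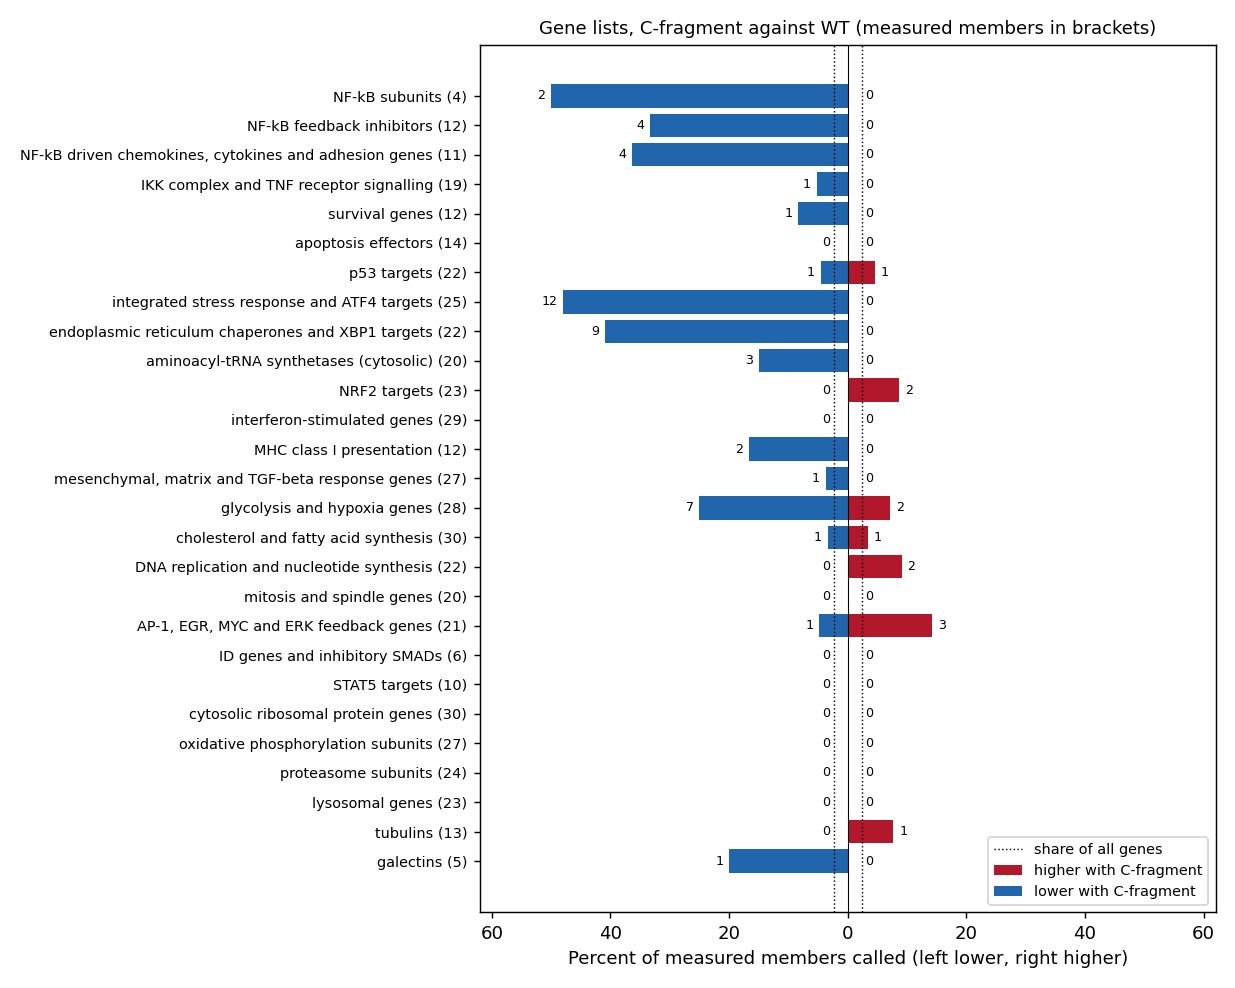
Share of the measured members of each gene list called lower (left, blue) or higher (right, red) with the C-fragment against WT, in percent, with the number called beside each bar and the number measured in brackets. Dotted lines mark 2.35% and 2.36%, the shares of all genes called lower and higher, and the longest bars, all to the left, are those of the NF-kB subunits (2 of 4) and the integrated stress response (12 of 25).

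Several genes outside these lists were present with 1 construct and not well above background with the other. Called genes above background on 3 of 3 C-fragment arrays and 0 of 3 WT arrays numbered 11, and those on 3 of 3 WT arrays and 0 of 3 C-fragment arrays 30. Regardless of a call the numbers were 11 and 131, and the C-fragment arrays also had fewer spots above background, whose part in this was not tested. Cyba, the gene of p22phox in the NADPH oxidase complex, had the largest fall among called genes with a symbol. It was at -7.76, -7.97 and -7.36 with the C-fragment, against 2.52, 2.51 and 2.62 with WT and 1.53, 1.72 and 1.79 with the void plasmid, at least 301-fold lower than with WT (-10.25 ± 2.31, adjusted p = 0.0168). It was low with D361E too (mean -7.69), and the 5 N+C arrays ran from -8.00 to 2.27. That spread enters the SE, which was 0.21 without the N+C arrays (adjusted p = 1.22e-10), while without any 1 of the 6 arrays the adjusted p was 0.0525 to 0.0639.

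Capn6, a calpain without protease activity, was at -7.97, -8.10 and -7.76 with the C-fragment, against -1.21, -1.27 and -1.39 with WT and -8.22, -7.93 and -8.20 with the void plasmid, at least 21-fold lower than with WT (-6.65 ± 0.18, adjusted p = 2.05e-12). Among the other groups D361E alone stood above that floor, at a mean of -3.97. Irf4, a transcription factor of lymphocytes and melanocytes, was at -7.83, -8.05 and -7.66 with the C-fragment, against -4.42, -4.66 and -4.67 with WT and -8.03, -7.62 and -7.80 with the void plasmid, at least 2.14-fold lower than with WT (-3.26 ± 0.15, adjusted p = 1.62e-09). Casp4, which encodes an inflammatory caspase that senses cytosolic lipopolysaccharide, was at -7.24, -6.06 and -5.22 with the C-fragment, against -0.96, -0.97 and -1.23 with WT and -3.97, -4.52 and -4.36 with the void plasmid. All C-fragment arrays lay below void and WT (-5.13 ± 0.97 from WT, adjusted p = 0.00569), but only 1 of the 3 was above background, so the size of the difference rests partly on signals at background. C-fragment minus void was not called for Casp4 (-1.89, adjusted p = 0.225).

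Other genes lay below WT and void plasmid alike when the C-fragment was expressed. Mbp, the myelin basic protein gene, was at -5.76, -4.84 and -5.36 with the C-fragment, against -1.40, -1.37 and -1.46 with WT and -0.08, 0.07 and 0.38 with the void plasmid (-3.91 ± 0.76 from WT, adjusted p = 0.00659). Tmem88, an inhibitor of Wnt signalling, was at -3.67, -3.88 and -4.24 with the C-fragment, against -0.31, -0.27 and -0.23 with WT and -1.72, -1.62 and -1.54 with the void plasmid (-3.66 ± 0.21 from WT, adjusted p = 2.15e-08). Nnmt, which methylates nicotinamide, was at least 4.21-fold lower than with WT (adjusted p = 0.000946), Tmem121 at least 4.24-fold (adjusted p = 2.02e-08) and Stum at least 2.39-fold (adjusted p = 0.00153). All 3 were not well above background on any C-fragment array. A second probe of Stum, with means of -6.53 with the C-fragment and -5.92 with WT, differed by -0.61, against -3.30 for the probe used. Nnmt lost its call in 1 of 18 alternatives (adjusted p = 0.0923).

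Most of the largest rises were genes at or under background with WT. Ldhd, a mitochondrial D-lactate dehydrogenase, was at -1.25, -1.27 and -1.42 with the C-fragment, against -6.76, -7.24 and -7.93 with WT and -0.78, -0.93 and -0.82 with the void plasmid, at least 25.3-fold higher than with WT (6.00 ± 0.98, adjusted p = 0.0021). The C-fragment cells were close to void there and WT lay apart. The mean was -1.92 with D361E, -6.91 with the N-fragment and -4.20 with N+C. Lhx5, a LIM homeobox factor of the developing brain, was likewise close to void and apart from WT, at -3.38, -3.39 and -3.71 with the C-fragment, against -8.08, -7.79 and -7.71 with WT and -3.60, -3.63 and -3.75 with the void plasmid (at least 5.59-fold higher, adjusted p = 0.00634). Gas6, the ligand of the TAM receptor kinases, was by contrast above background on all C-fragment arrays (-3.27, -3.73 and -3.54), against 0 of 3 WT arrays (-5.62, -7.95 and -8.03) and 1 of 3 void arrays (-6.75, -5.44 and -6.89). It was at least 4.95-fold higher than with WT (3.69 ± 0.63, adjusted p = 0.0028). Maats1 was at least 7.24-fold higher (adjusted p = 1.74e-07), BC039966 at least 4.37-fold (adjusted p = 0.00862) and Ephx4, an epoxide hydrolase, at least 3.17-fold (adjusted p = 0.013). The call of Ephx4 ended without C-fragment array 1 (adjusted p = 0.0525) or 3 (0.0567) or WT array 1 (0.066) or 3 (0.0515). The olfactory receptor gene Olfr926 was above background on 2 of 3 C-fragment arrays and at least 1.92-fold higher (adjusted p = 0.0357), a call that held without C-fragment array 2 alone among the 6 fits without 1 array (adjusted p 0.085 to 0.159 in the other 5).

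Among 30 measured genes of cholesterol and fatty acid synthesis the median was -0.17, and the sterol reductase gene Tm7sf2 fell (-0.36 ± 0.07, adjusted p = 0.00411). A pair of large rises had WT levels above background. Nrip3, a nuclear receptor-interacting protein, was at -1.41, -1.40 and -1.21 with the C-fragment, against -3.89, -4.25 and -3.99 with WT and -3.18, -3.03 and -3.54 with the void plasmid (2.70 ± 0.18 from WT, adjusted p = 2.14e-07). C-fragment was above both groups there, and D361E had a mean of -1.41. Sucnr1, the succinate receptor, was at -2.38, -2.53 and -2.68 with the C-fragment, against -5.75, -5.50 and -5.14 with WT and -3.87, -3.82 and -3.59 with the void plasmid (2.93 ± 0.55, adjusted p = 0.00551).

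**Figure D5:**
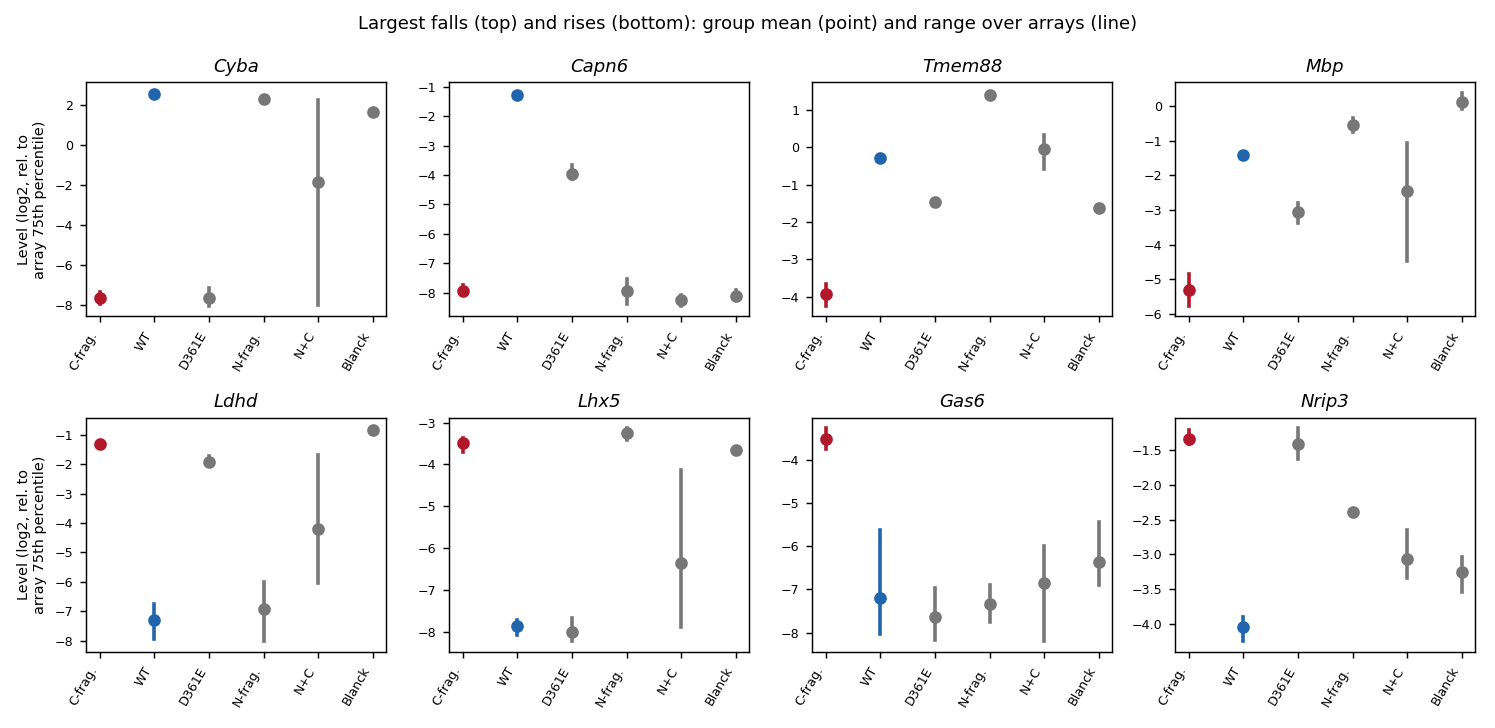
Group means (points) and ranges over arrays (lines) of the level (log2, relative to the array's 75th percentile, y axis) for 4 large falls (top) and 4 large rises (bottom) in all 6 groups, with C-fragment in red, WT in blue and the others in grey. Cyba is low with C-fragment and D361E and spans -8.00 to 2.27 over the N+C arrays, while Gas6 is high with C-fragment, at -3.27, -3.73 and -3.54.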

How the data were processed

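RNA of 20 samples was hybridised to 1-colour (Cy3) mouse arrays, 4 to a slide on 5 slides, and scanned by the authors. Per the file headers, Agilent Feature Extraction 10.7.3.1 gave each spot's intensity, and the processed signal used here is its background-subtracted intensity; the deposited series table held the same values. The log2 values are not the authors': log2 of the deposited processed intensity was taken here and each array's 75th percentile subtracted. Control spots and outlier spots were left out, spots of a probe were averaged, and 23453 of 39429 probes were kept, those clearly above background on 3 or more of the 20 arrays. Symbols came from RefSeq accessions (28663 probes, 72.7%), and each gene took its brightest probe, which left 18756 genes, 4915 of them without a symbol. Samples were grouped by title.

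limma 3.58.1 in R 4.3.3 fitted 6 groups over all 20 arrays with 14 residual degrees of freedom, and p-values were adjusted by the Benjamini-Hochberg method over all genes. The code was tested on simulated data. The number of arrays limits the precision. Gene lists (27, with 562 members), named genes and motifs were chosen with earlier results of these data known. The rule named Rela, the 10 largest rises and falls, the 6 brightest genes present in 1 group only in each direction, up to 4 called members per list and direction, and all measured NF-kB list members. Further members of the stress and hypoxia lists, and called cell type markers, were named after their values were seen. Promoter windows were RefSeq sequences of GRCm38.p6. Alternatives covered normalization, background correction, the filter, the probes of a gene, the arrays fitted, the variance prior, slide and single arrays. The planned normexp correction used the spots' median signal, since the files held no mean signal. A result of 1 called gene and a marker are not reported here.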

Additional observations from a re-analysis of the deposited data

How the results depend on the processing

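Of the 64 called genes named in the text, 35 kept the call under every alternative run, 29 lost it under at least 1, and 0 changed sign. The number of genes called, 882, was 539 (213 higher) after normexp correction and 479 (203 higher, 276 lower) without a filter on dim probes, where 32016 genes were tested. It was 2379 (1187 higher, 1192 lower) with the 6 arrays fitted alone, 1848 (924 and 924) without the N+C arrays, 1770 (1048 higher, 722 lower) with slide as a fixed block and 1633 (890 higher, 743 lower) with slide as a random block. Without scaling between arrays 74 were higher and 862 lower, 7.91% upward beside 50.1%. Leaving out 1 array gave 404 to 609 called genes, 181 to 309 higher and 223 to 300 lower. An alternative chosen after seeing the data, the 6 arrays alone with slide as a block, gave 629 genes, 244 of them higher. The difference for Rela, C-fragment minus WT, was -0.0656 after quantile normalization, -0.0742 after normexp correction, -0.154 without scaling, -0.0359 within slide 3 and 0.058 within slide 4. The causes were not tested. Counts of called genes have no value within a slide, which holds 1 array of each group. No replicate number is shared between groups, whose arrays are only numbered in sequence, so pairing was tried by slide alone, in the fits above with slide as a block. Dim genes are limited by background: 131 genes were above it on all WT arrays and on no C-fragment array, and for those named a bound on the fold stands beside the fitted difference.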
